A study of Mus musculus with 14 samples.

Results

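Gm11454, a long intergenic noncoding RNA gene on mouse chromosome 2, was described here together with 9 protein-coding genes near it: Ptprt, Srsf6, L3mbtl1, Ift52 and Mybl2 on its upstream side, and Tox2, Oser1, Gdap1l1 and Ttpal on its downstream side. Gm11454 was chosen because it had no reads in any P0 knockout retina, so its own P0 values are a description and carry no test. The other 9 genes were chosen by position and name and are a subset: 16 protein-coding genes are annotated within 0.5 Mb of Gm11454. These 10 genes were matched by gene symbol among 19337 genes of the newborn table and 11613 genes of the postnatal day 22 table. All 10 had a row at P0. At P22, 7 had one; Gm11454, L3mbtl1 and Mybl2 were not analysed here at that age.

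The data were bulk RNA sequencing of dissected retina from mice carrying 1 intact copy (Peanut +/-, called het) or no intact copy (Peanut -/-, called KO) of a locus that the labels name Peanut. There were 4 het and 4 KO libraries on the day of birth (P0), and 2 het and 4 KO libraries at postnatal day 22 (P22). No wild-type retina was among the samples, so every control library came from an animal with 1 altered allele. The labels give neither the strain nor the kind of mutation, nor whether each library came from a separate animal, so p-values measure the spread between these libraries. No row of either table is named Peanut, and whether Gm11454 is that locus is not stated in the labels. P0 libraries were made after RNase-H removal of ribosomal RNA with random hexamer priming, and P22 libraries with a Takara SMARTer stranded total RNA kit. Age and kit therefore coincide, and levels were not compared between ages.

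Long intergenic noncoding RNAs are transcribed and often spliced but encode no known protein. Some act on genes close to their own site of transcription, and others act elsewhere or have no known role, which is why the genes next to a noncoding locus are commonly examined when it is disrupted. In the mouse retina, birth is a time when progenitors still divide and produce rods, bipolar cells and Müller glia, and by the fourth postnatal week the tissue is made of mature neurons and glia.

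Gm11454 (ENSMUSG00000086152.1) lies on the plus strand at chr2:163122606-163143959 in GRCm38, in the gap between Mybl2 and Tox2. The GENCODE M21 annotation gives it 3 exons with 714 bases in all. Exon 1 is chr2:163122606-163122778, exon 2 is chr2:163140836-163140970 and exon 3 is chr2:163143554-163143959. The sequences are printed because the P0 knockout libraries held no read of this gene; of exon 3 the first 300 bases (chr2:163143554-163143853) are given. Capitals in exon 1 mark the 59 bases that also lie in the RefSeq promoter window printed after it.
Gm11454 exon 1: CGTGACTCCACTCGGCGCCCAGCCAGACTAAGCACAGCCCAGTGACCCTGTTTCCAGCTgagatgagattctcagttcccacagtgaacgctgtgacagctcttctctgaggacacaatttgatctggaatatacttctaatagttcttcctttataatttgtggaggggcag
Gm11454 exon 2: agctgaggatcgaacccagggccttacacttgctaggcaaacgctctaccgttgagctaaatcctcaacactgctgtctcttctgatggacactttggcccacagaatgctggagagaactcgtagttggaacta
Gm11454 exon 3: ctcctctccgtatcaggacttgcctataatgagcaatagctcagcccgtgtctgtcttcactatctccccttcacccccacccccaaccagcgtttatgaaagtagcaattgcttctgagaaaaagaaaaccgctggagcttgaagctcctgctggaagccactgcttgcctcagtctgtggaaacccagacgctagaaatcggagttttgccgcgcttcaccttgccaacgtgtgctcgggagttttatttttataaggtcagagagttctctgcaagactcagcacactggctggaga

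Promoter windows of 300 bases (250 before and 50 after the RefSeq start, GRCm38.p6) were found for 8 of the 10 genes, all but Gdap1l1 and Ttpal. Those of Gm11454 (chr2:163122365-163122664, plus strand) and of Ptprt (chr2:162661098-162661397, minus strand), Mybl2 (chr2:163054385-163054684, plus strand) and Tox2 (the first of its entries, chr2:163202877-163203176, plus strand) are shown. The 3 coding genes were taken because the same P0 KO library, replicate 3, was the highest P0 library for each. Capitals mark the E-box letters CAGCTG and CATCTG, read on both strands.
Gm11454 promoter: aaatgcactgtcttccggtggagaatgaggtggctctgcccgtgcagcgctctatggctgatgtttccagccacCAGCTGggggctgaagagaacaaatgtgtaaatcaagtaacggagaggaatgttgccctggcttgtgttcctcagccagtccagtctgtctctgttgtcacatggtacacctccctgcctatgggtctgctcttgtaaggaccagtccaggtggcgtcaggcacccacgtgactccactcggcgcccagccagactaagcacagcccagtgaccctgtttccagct
Ptprt promoter: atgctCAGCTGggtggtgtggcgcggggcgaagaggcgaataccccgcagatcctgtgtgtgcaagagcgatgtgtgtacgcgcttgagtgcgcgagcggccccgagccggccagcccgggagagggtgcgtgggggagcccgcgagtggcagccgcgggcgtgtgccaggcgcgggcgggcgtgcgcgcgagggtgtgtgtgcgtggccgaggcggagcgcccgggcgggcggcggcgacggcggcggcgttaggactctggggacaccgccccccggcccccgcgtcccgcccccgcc
Mybl2 promoter: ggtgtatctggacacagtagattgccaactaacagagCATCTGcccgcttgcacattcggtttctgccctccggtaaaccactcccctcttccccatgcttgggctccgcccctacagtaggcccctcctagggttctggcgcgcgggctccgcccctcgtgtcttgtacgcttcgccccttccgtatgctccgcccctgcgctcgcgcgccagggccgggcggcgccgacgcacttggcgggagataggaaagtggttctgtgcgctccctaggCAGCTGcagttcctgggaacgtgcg
Tox2 promoter: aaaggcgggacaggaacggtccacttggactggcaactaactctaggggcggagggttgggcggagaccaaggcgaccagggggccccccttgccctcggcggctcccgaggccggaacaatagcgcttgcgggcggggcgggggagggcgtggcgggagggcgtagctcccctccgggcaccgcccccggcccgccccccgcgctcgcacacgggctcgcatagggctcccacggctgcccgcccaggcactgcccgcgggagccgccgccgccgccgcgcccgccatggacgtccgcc

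CAGCTG, the core bound by many basic helix-loop-helix factors, was found at -176 from the start of Gm11454, at -245 in Ptprt, at 25 in Mybl2 and at -241 in L3mbtl1. Among 27025 RefSeq promoters of the same length, 16.1% held it. CATCTG was found in Mybl2 at -213 and occurs in 17.2% of all promoters. The first Tox2 window held neither. It also held none of the other letters searched on both strands, which were TAATCC (bound by CRX), the cell cycle element TTTGAA, the TATA box TATAAA, and the E2F-type letters TTTGGCGC or TTTCCCGC or TTTCGCGC, found in 7.16%, 18.1%, 14.2%, 0.537%, 1.11% and 0.318% of all promoters. TATAAA was present at -182 in L3mbtl1 and in Tox2 windows 4 and 5 at -31 and -32. No match of any of these letters was found in the windows of Srsf6, Ift52 and Oser1. The Gm11454 window had 56.3% GC and 8 CpG, against medians of 52.7% and 7 over all promoters, while the Ptprt window had 77.3% GC.

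Library totals were 15028865 to 19833083 reads at P0. At P22 the KO totals were 11044462 to 17990507, het replicate 2 had 22813199, and het replicate 1 had 1819688 reads, the shallowest by far. Levels are given as CPM, the read count scaled to the library total. At P22 the 7 rod genes, defining markers of this tissue, summed to 16420 CPM or more in every library, and 0 of 5 lens and 0 of 4 skeletal muscle genes had a row. At P0, 3 of 5 lens genes had a row and summed to 56.9 CPM in KO replicate 2, against 11.1 to 18.0 CPM in the other 7 libraries. P0 KO replicate 3 stood apart from the other 3 P0 KO libraries in several marker lists, and fold changes and counts at P0 are also given without it.

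Gm11454 was counted at a low level in every P0 het retina and in no P0 KO retina. Het replicates 1 to 4 held 22, 14, 30 and 31 reads, which is 1.44, 0.837, 1.51 and 1.78 CPM, with a mean of 1.39 ± 0.397 (SD, n = 4). All 4 KO libraries held 0 reads, so the groups did not overlap. The pooled het level was at least 32.3-fold higher than the level of 3 reads over the KO group, 0.0433 CPM, which covers counting error only.

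This was the single row of the P0 table with 0 reads in all KO libraries, and 0 rows were at 0 in all het libraries. The next lowest ratio of KO to het CPM, 0.443, belonged to Ndufa4l2, a mitochondrial protein gene, with 1733 KO reads and 3912 het reads in all. Gm11454 sat close to the lower edge of the table: its 97 reads over 8 libraries compare with 95 for the row with fewest. At P22 the lowest row held 347 reads over 6 libraries. Per kilobase of exon, the het level of 1.95 CPM per kb was above that of 312 of the 548 lincRNA rows (56.9%) and above 26.8% of all rows with a length.

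**Figure D1:**
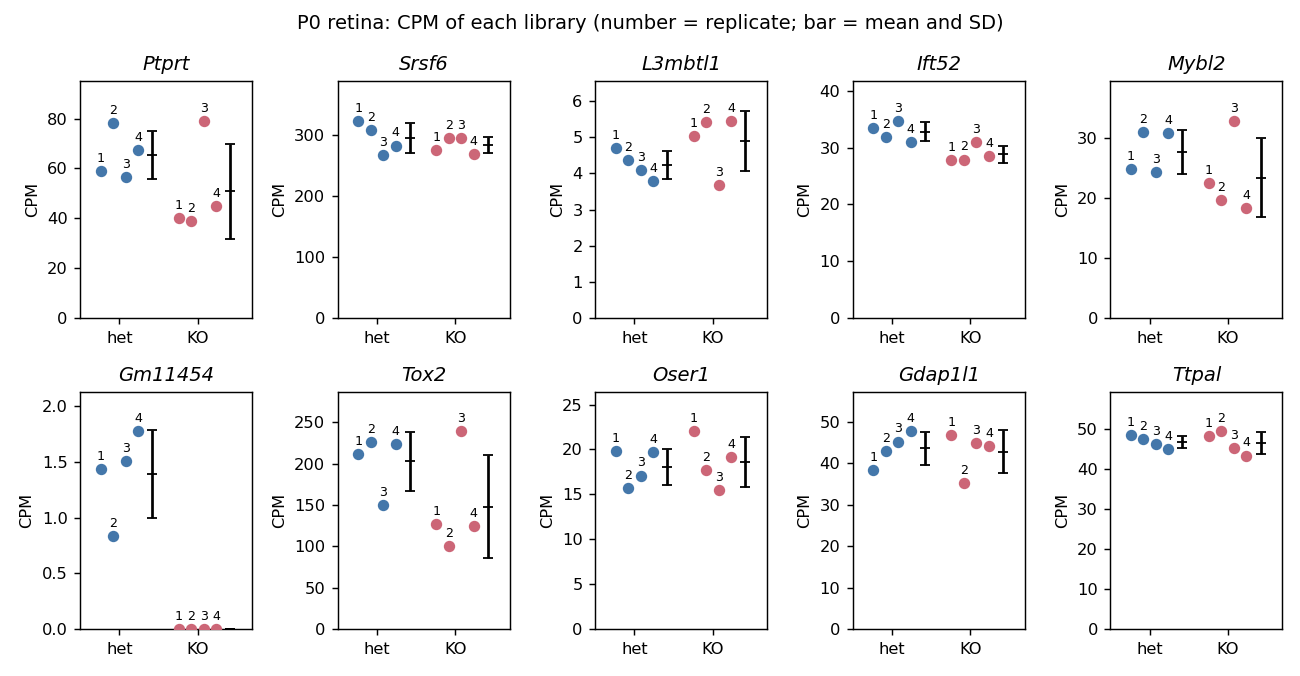
CPM in each P0 library for Gm11454 and its 9 neighbours, het in blue and KO in red, numbered by replicate, with mean and SD as a bar. Gm11454 was at 0 in the 4 KO libraries, and KO replicate 3 was the highest library of either group for Ptprt (79.2), Mybl2 (32.8) and Tox2 (239).

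In the P0 retinas none of the 9 neighbours passed the test between KO and het. The lowest log2 fold changes belonged to Tox2 at -0.46 and Ptprt at -0.37, and the highest to L3mbtl1 at 0.18. In edgeR's quasi-likelihood test, with p-values adjusted by Benjamini-Hochberg over all genes and an adjusted p under 0.05 counted as called, 0 of 9 were called, against 0.00517% of all 19337 genes, and 0 of 9 had an unadjusted p under 0.05, against 8.17% of all genes. DESeq2 called 0 of 9 (0.00517% of all genes), and limma-voom with sample weights called 3, where it called 11.1% of all genes. Of the 9, 7 had a negative and 2 a positive fold change, against 45.1% negative over all genes, whose median was 0.028. Without KO replicate 3, 4 of 9 were called, all lower in KO, where 12.6% of all genes were called lower.

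Tox2 (ENSMUSG00000074607.11, chr2:163203125-163324170, plus strand) starts 59.2 kb past the end of Gm11454 and encodes an HMG-box nuclear protein of the TOX family. Its levels in het replicates 1 to 4 were 211, 226, 151 and 224 CPM, and in KO replicates 1 to 4 they were 128, 101, 239 and 125 CPM. KO replicates 1, 2 and 4 lay below every het library and KO replicate 3 lay above every one. The log2 fold change was -0.46 (SE 0.23, 95% interval -0.96 to 0.04), with an adjusted p of 0.526 by edgeR's quasi-likelihood test and 0.00058 to 0.878 over 15 alternatives. Without KO replicate 3, Tox2 fell by 0.87 on the log2 scale (SE 0.13, edgeR adjusted p 0.00058). KO replicate 3 was the highest P0 library for Tox2, Ptprt and Mybl2, so leaving it out necessarily lowers their fold changes. With any other P0 library left out, the edgeR adjusted p of Tox2 was 0.496 to 0.878.

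Ptprt (ENSMUSG00000053141.16, chr2:161521990-162661147, minus strand) encodes a receptor-type protein tyrosine phosphatase of the adhesive R2B class, found mostly in neurons. Its body lies 461 kb upstream of Gm11454. The het libraries had 59.0, 78.1, 56.8 and 67.3 CPM and the KO libraries 40.3, 39.1, 79.2 and 44.8 CPM. As for Tox2, KO replicates 1, 2 and 4 were below every het library and KO replicate 3 was above all of them. The log2 fold change of -0.37 (SE 0.21, 95% interval -0.81 to 0.079) had an adjusted p of 0.527 in edgeR's quasi-likelihood test and 0.000594 to 0.878 over 15 alternatives. With KO replicate 3 left out, Ptprt fell by 0.74 (SE 0.11, edgeR adjusted p 0.000594).

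Mybl2 (ENSMUSG00000017861.11, chr2:163054687-163084688, plus strand), the nearest coding gene with a row, at 37.9 kb upstream, encodes B-Myb, a transcription factor that drives genes of the late cell cycle in dividing cells. It was at 24.8, 31.0, 24.3 and 30.7 CPM in the het libraries and at 22.5, 19.6, 32.8 and 18.4 CPM in the KO libraries. The same KO library was high and the other 3 lay below the het range. Its log2 fold change was -0.26 (SE 0.18, 95% interval -0.64 to 0.12; edgeR's quasi-likelihood adjusted p 0.562, and 0.00577 to 0.878 over 15 alternatives). Mybl2 fell by 0.54 without KO replicate 3 (SE 0.12, edgeR adjusted p 0.00577).

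Ift52 (ENSMUSG00000017858.12, chr2:163017354-163046141, plus strand), 76.5 kb upstream, encodes a core subunit of the intraflagellar transport B complex, which carries cargo along cilia, the photoreceptor outer segment being a modified cilium. Its het libraries had 33.5, 31.9, 34.7 and 31.0154 CPM and its KO libraries 27.8, 27.9, 30.9788 and 28.5 CPM. All 4 KO libraries were below all 4 het libraries in CPM, by a gap in the second decimal, and this was the case for 1 of the 9 neighbours, against 1.12% of all genes. After TMM scaling, which adjusts totals for composition, 3 of 4 KO libraries were below every het library. The log2 fold change was -0.21 (SE 0.099, 95% interval -0.42 to 0.0036), with an adjusted p of 0.526 in edgeR's quasi-likelihood test, and 0.0318 to 0.878 over 15 alternatives. Without KO replicate 3 Ift52 fell by 0.31 (SE 0.090, edgeR adjusted p 0.0318).

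**Figure D2:**
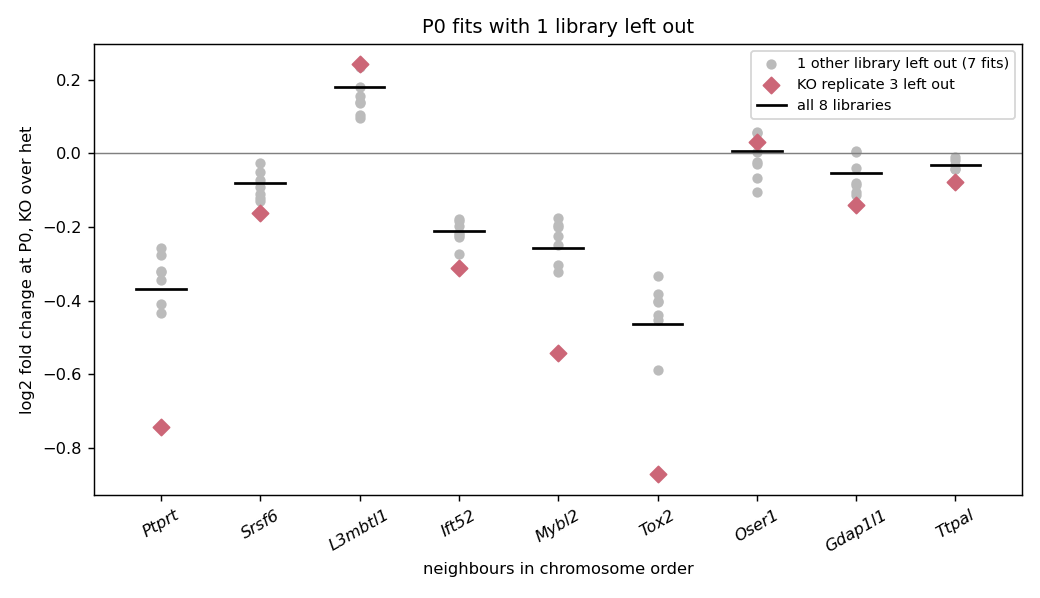
Log2 fold change of each P0 neighbour (KO against het) with all libraries and with each library left out in turn. Leaving out KO replicate 3 moved Tox2 from -0.46 to -0.87 and Ptprt from -0.37 to -0.74, and left Srsf6, L3mbtl1, Oser1, Gdap1l1 and Ttpal without a call.

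The remaining P0 neighbours did not separate the genotypes. L3mbtl1 (ENSMUSG00000035576.13, chr2:162943472-162974522, plus strand), which encodes a chromatin reader with MBT repeats, had 4.70, 4.36, 4.08 and 3.78 CPM in het and 5.02, 5.41, 3.67 and 5.46 CPM in KO. KO replicates 1, 2 and 4 were above the het range and KO replicate 3 below it, the mirror image of Tox2. Its log2 fold change was 0.18 (SE 0.16, 95% interval -0.17 to 0.53; edgeR's quasi-likelihood adjusted p 0.635), it was called in none of the 15 alternatives (adjusted p 0.245 to 0.920; 0.24 on the log2 scale without KO replicate 3), and its libraries held only 66 to 105 reads.

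Srsf6 (ENSMUSG00000016921.14, chr2:162931528-162937121, plus strand), a serine/arginine-rich splicing factor, ranged from 267 to 323 CPM in het and from 269 to 295 CPM in KO, with a log2 fold change of -0.08 (95% interval -0.30 to 0.14; -0.16 without KO replicate 3). Gdap1l1 (ENSMUSG00000017943.15, chr2:163438476-163455324, plus strand), a relative of the mitochondrial fission gene Gdap1, ranged from 38.5 to 47.8 CPM in het and from 35.3 to 46.8 CPM in KO, with a log2 fold change of -0.05 (95% interval -0.30 to 0.19; -0.14 without KO replicate 3). Ttpal (ENSMUSG00000017679.16, chr2:163602314-163619013, plus strand), a relative of the vitamin E transfer protein, was the steadiest neighbour in the het libraries, with 46.8 ± 1.55 CPM (SD, n = 4) against 46.6 ± 2.76 in KO (n = 4), and a log2 fold change of -0.03 (95% interval -0.23 to 0.16; -0.08 without KO replicate 3). These intervals leave room for modest differences in either direction.

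Oser1 (ENSMUSG00000035399.12, chr2:163405822-163424697, minus strand), a gene named for its response to oxidative stress, had 19.8, 15.7, 17.1 and 19.7 CPM in het and 22.02, 17.7, 15.4 and 19.2 CPM in KO, and the groups overlapped. The annotated antisense gene 2900093K20Rik overlaps it, and the use of strand in counting is not given in the sources used here, so reads of the pair cannot be told apart. The log2 fold change was 0.01 (95% interval -0.26 to 0.27; 0.03 without KO replicate 3), and its sign turned in 4 of 8 fits that left out 1 library.

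Marker lists of several cell types also set P0 KO replicate 3 apart, some in the direction of Tox2, Ptprt and Mybl2 and some in the other. The 6 amacrine genes, which mark an inhibitory interneuron class, summed to 448 to 558 CPM in the het libraries and to 309, 281, 525 and 335 CPM in KO replicates 1 to 4. The 7 progenitor genes summed to 4031 to 4262 CPM in het and to 3511, 3703, 4624 and 3532 CPM in KO, and the 5 vascular genes to 466 to 534 CPM in het and to 354, 374, 520 and 422 CPM in KO. KO replicate 3 was the highest KO library in each of these 3 lists. The 6 of 7 Müller glia genes with a row, many of which progenitors also express, summed to 1433 to 1690 CPM in het and 1149, 1198, 1705 and 1178 CPM in KO, and no gene with a row in these lists was at 0 throughout a group. The photoreceptor lists ran the other way: the 7 rod genes summed to 538 to 705 CPM in het and to 791, 769, 549 and 766 CPM in KO, and the 6 cone genes to 267 to 347 CPM in het and to 390, 376, 281 and 369 CPM in KO. Here KO replicate 3 was the lowest KO library. Of the 24 genes with a row in the amacrine, progenitor, vascular and Müller glia lists, edgeR called 0 (0.00517% of all genes). Of these, 1 had an unadjusted p under 0.05 (8.17% of all genes). DESeq2 called 0 (0.00517%) and limma-voom 12 (11.1%). EdgeR called 13 without KO replicate 3, against 14.7% of all genes. In bulk tissue, fewer cells of a type and less RNA per cell cannot be told apart, and the part of cell makeup in the neighbours' values was not tested.

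In the P22 retinas, 0 of the 7 neighbours with a row passed edgeR's quasi-likelihood test, against 11.2% of all 11613 genes. None of the 7 had an unadjusted p under 0.05, against 28.8% of all genes, and DESeq2 (14.2% of all genes) and limma-voom (23.0%) each called 0 of 7. Ptprt had the most positive log2 fold change, 0.46, and Gdap1l1 the only negative one, -0.17. Of the 7, 6 were positive, against 53.6% of all genes, whose median was 0.036. Het replicate 1 held only 22 to 136 reads for each neighbour. It also differed from het replicate 2 in the 6 ganglion cell genes, which summed to 1163 and 437 CPM, and in the 2 of 5 pigment epithelium genes with a row, which summed to 64.3 and 36.1 CPM; the part of this in the neighbours' values was not tested.

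**Figure D3:**
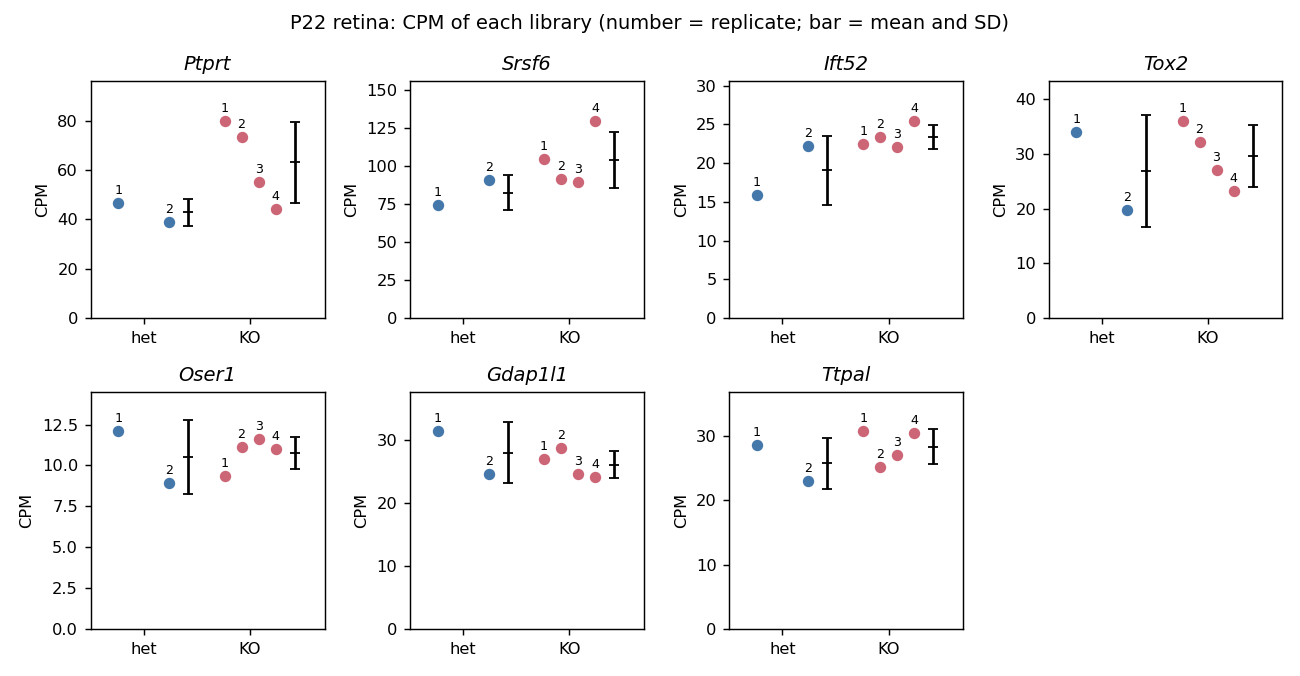
CPM in each P22 library for the 7 neighbours with a row, het in blue and KO in red, numbered by replicate, with mean and SD as a bar. Ptprt ranged from 39.0 to 46.7 in the 2 het libraries and from 44.2 to 80.1 in the 4 KO libraries.

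Ptprt had 46.7 and 39.0 CPM in het replicates 1 and 2, and 80.1, 73.3, 55.1 and 44.2 CPM in KO replicates 1 to 4. KO replicates 1 to 3 were above both het libraries and KO replicate 4 lay between them. The log2 fold change was 0.46 (SE 0.23, 95% interval -0.043 to 0.96), with an adjusted p of 0.208 by edgeR's quasi-likelihood test, and 0.0147 to 0.585 over 13 alternatives. The authors' deposited table gives Ptprt a log2 fold change of 0.59 with an FDR of 0.0293 at P22, and of -0.36 with an FDR of 0.360 at P0. The lowest deposited FDR of any other neighbour at P22 was 0.232, for Srsf6. The authors' values call 2111 of 11613 genes at P22 and 34 of 19337 at P0.

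Tox2 had 34.1 and 19.7 CPM in het and 36.1, 32.1, 27.0 and 23.2 CPM in KO. The het pair spanned most of the KO range, and the sign of its log2 fold change (0.15, SE 0.24, edgeR adjusted p 0.701, and 0.102 to 0.941 over 13 alternatives) turned to -0.34 without het replicate 2. Srsf6 had 74.7 and 90.7 CPM in het and 105, 91.5, 89.6 and 130 CPM in KO, with a log2 fold change of 0.17 (95% interval -0.18 to 0.53). Ift52 had 15.9 and 22.2 CPM in het and 22.5, 23.3, 22.1 and 25.5 CPM in KO, with a log2 fold change of 0.07 (95% interval -0.29 to 0.43). That value was -0.066 without het replicate 1 and 0.42 without het replicate 2. In CPM, 3 of 4 KO libraries of both genes were above both het libraries; after TMM scaling 2 of 4 were for Srsf6 and 1 of 4 for Ift52.

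Ttpal had 28.6 and 23.0 CPM in het against 25.2 to 30.7 CPM in KO, and a log2 fold change of 0.06 (95% interval -0.28 to 0.39). Oser1 had 12.1 and 8.90 CPM in het against 9.36 to 11.6 CPM in KO, and its log2 fold change of 0.01 (95% interval -0.47 to 0.48) was the least certain of those near 0. Gdap1l1 had 31.3 and 24.5 CPM in het against 24.03 to 28.6 CPM in KO, and a log2 fold change of -0.17 (95% interval -0.52 to 0.17). In all 3 genes the groups overlapped. When libraries were scaled by totals alone, the median of all genes at P22 was 0.17, and the signs of the 7 neighbours did not change.

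Marker genes of several retinal cell types differed between the P22 groups. The 7 rod genes summed to 31737 and 32629 CPM in het and to 16420 to 20335 CPM in KO, and 7 of 7 fell in the test, against 6.41% of all genes called lower. The 7 Müller glia genes summed to 1143 and 1263 CPM in het and to 1692 to 2376 CPM in KO, with 5 of 7 rising, against 4.74% of all genes called higher. The 6 amacrine genes summed to 256 and 341 CPM in het and to 365 to 530 CPM in KO. Of the 6, edgeR's quasi-likelihood test called 0 (11.2% of all genes), and 4 had an unadjusted p under 0.05 (28.8%). DESeq2 called 0 (14.2%) and limma-voom 3 (23.0%). Gene levels are shares of each library, and the part of these changes in the neighbours' values was not tested.

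Set side by side, 5 of the 7 neighbours measured at both ages (Ptprt, Srsf6, Ift52, Tox2 and Ttpal) had a negative log2 fold change at P0 and a positive one at P22, against 22.8% of the 11428 genes present in both tables. The count moved with the libraries used: without P22 het replicate 2 it was 3 of 7 (Ptprt, Srsf6 and Ift52; 18.8% of all genes), and without P22 het replicate 1 it was 4 of 7 (24.7% of all genes). It was 6 of 7, Oser1 added, without P0 KO replicate 1, P0 KO replicate 4, P0 het replicate 2 or P0 het replicate 3 (22.8% or more of all genes), and 5 of 7 without any 1 of the other 8 libraries. Opposite signs of either kind were found in 40.2% of those genes. Gdap1l1 was negative at both ages and Oser1 was positive and near 0 at both. The interval of each of the 7 held 0 at both ages.

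The difference itself was tested in 1 joint fit, as the genotype effect at P22 minus that at P0. Since age and library kit coincide, the part of each in this difference, and in the signs above, cannot be told apart. By edgeR's quasi-likelihood test 0 of 7 neighbours were called, against 4.10% of all genes, and 1 of 7 (Ptprt) had an unadjusted p under 0.05, against 21.6% of all genes. DESeq2 called 0 of 7 (7.33% of all genes), and limma-voom with sample weights called 2 of 7, where it called 13.8% of all genes. Ptprt had a difference of 0.79 on the log2 scale (SE 0.37, 95% interval 0.016 to 1.56; edgeR adjusted p 0.222, and 0.0113 to 0.514 over 21 alternatives). For Tox2 it was 0.59 (SE 0.41, edgeR adjusted p 0.431, and 0.0245 to 0.935 over 21 alternatives).

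Without P0 KO replicate 3, 2 of 7 were called, against 10.7% of all genes: Ptprt at 1.14 (edgeR adjusted p 0.0128) and Tox2 at 1.00 (edgeR adjusted p 0.0305). Limma-voom called the same pair, at 1.202 and 1.13. The differences of the other 5 were 0.23 for Ift52, 0.21 for Srsf6, 0.04 for Ttpal, -0.03 for Oser1 and -0.16 for Gdap1l1.

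**Figure D4:**
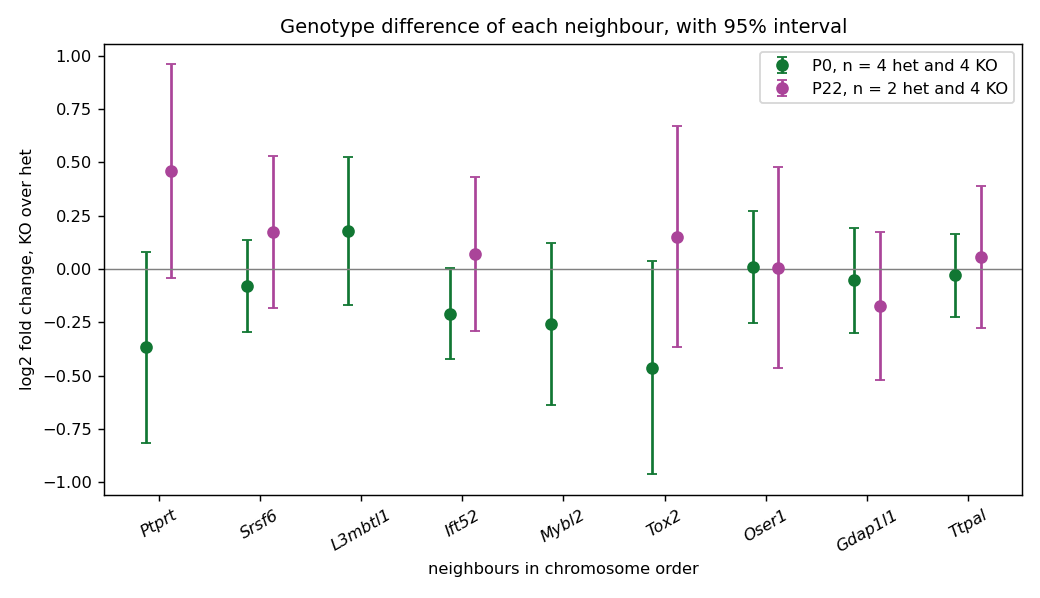
Log2 fold change (KO against het) of each neighbour at P0 and at P22 with 95% intervals. Every interval holds 0; Ptprt runs from -0.81 to 0.079 at P0 and from -0.043 to 0.96 at P22.

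Compared per kilobase of exon within the P0 het libraries, Srsf6 (61.3 CPM per kb) and Tox2 (59.7) were highest and overlapped. Gdap1l1 (16.9) and Ift52 (11.7) came next, each apart from its neighbours in the order. Ttpal (7.86), Oser1 (6.95), Mybl2 (5.97) and Ptprt (5.18) formed a run in which each overlapped the following one. Gm11454 (1.95) and L3mbtl1 (1.01) were lowest and did not overlap each other. At P22, Srsf6 (17.2 CPM per kb) stood first and apart from the rest of the het order. Gdap1l1 (10.8), Tox2 (7.90) and Ift52 (6.81) followed with overlaps, then Ttpal (4.33), Oser1 (4.04) and Ptprt (3.40), which also overlapped in turn.

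The neighbourhood was widened to all annotated genes within 1 Mb of Gm11454, of which there were 45, 25 of them protein-coding. At P0, 22 had a row; 0 were called by edgeR's quasi-likelihood test (0.00517% of all genes) and 1 had an unadjusted p under 0.05 (8.17% of all genes), while DESeq2 called 0 (0.00517%) and limma-voom 5 (11.1%). Of these, 16 had a negative and 6 a positive fold change, against 45.1% negative over all genes, with a median of -0.038 against 0.028 for all genes. Without KO replicate 3, 7 of 22 were called, against 14.7% of all genes, and the median was -0.086 against 0.016. Among window genes other than the 9 neighbours, the smallest p belonged to Rims4, which encodes a regulator of synaptic release and lies 716 kb downstream. Its het libraries had 18.6, 18.7, 17.0 and 18.5 CPM and its KO libraries 16.9, 10.9, 16.1 and 9.52 CPM, so the groups did not overlap, as for 1.12% of all genes in this direction (log2 fold change -0.46, SE 0.17, edgeR adjusted p 0.526). In this gene KO replicate 3 was in the KO range, unlike in Tox2, Ptprt and Mybl2. Fitm2, a lipid droplet gene 322 kb downstream, was the next of the non-members, with a log2 fold change of -0.25 (edgeR adjusted p 0.526). Without KO replicate 3 both were among the 7 called: Rims4 fell by 0.64 (SE 0.16, edgeR adjusted p 0.0133) and Fitm2 by 0.40 (SE 0.10, edgeR adjusted p 0.0175).

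At P22, 14 genes of the window had a row; 0 were called by edgeR's quasi-likelihood test (11.2% of all genes) and 1 had an unadjusted p under 0.05 (28.8% of all genes), while DESeq2 (14.2%) and limma-voom (23.0%) each called 1. Of these, 10 were positive and 4 negative, against 53.6% positive over all genes, with a median of 0.091 against 0.036 for all genes. Pkig, an inhibitor of protein kinase A 514 kb downstream, had the smallest p among window genes other than the neighbours, with 48.4 and 41.1 CPM in het and 26.3, 25.1, 40.3 and 27.9 CPM in KO. All KO libraries were below both het libraries, as for 12.3% of all genes, and Pkig had a log2 fold change of -0.69 (SE 0.20; adjusted p 0.0508 in edgeR). Serinc3, a membrane protein gene 479 kb downstream, was the next of the non-members, with a log2 fold change of 0.22 (edgeR adjusted p 0.413). Within 5 Mb, 9 of 65 genes were called at P22 (13.8%, against 11.2% of all genes), 1 higher and 8 lower. At P0, edgeR called 0 of 101 (0.00517% of all genes), and 11 had an unadjusted p under 0.05 (8.17% of all genes). Of the 101, 73 were negative, against 45.1% of all genes, with a median of -0.093 against 0.028 for all genes. This wider window was not counted without P0 KO replicate 3.

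**Figure D5:**
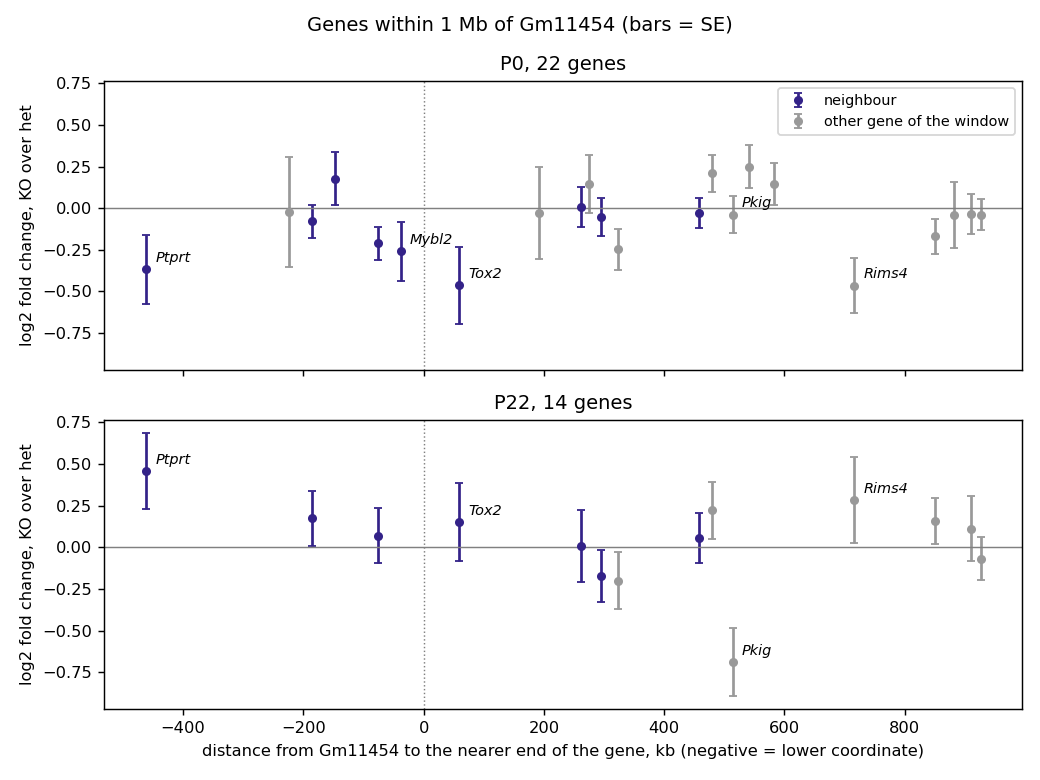
Log2 fold change (KO against het) of genes within 1 Mb of Gm11454 by distance from it, at P0 and at P22. The P0 values of the 22 genes run from -0.46 to 0.25, and the P22 values of the 14 genes from -0.69 to 0.46.

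Relatives and partners of the neighbours were examined through fixed lists. At P0, edgeR's quasi-likelihood test called 0 genes in any of the 9 lists. Of their 82 genes other than the neighbours, 8 had an unadjusted p under 0.05 (8.17% of all genes did), DESeq2 called 0, and limma-voom called 14 (11.1% of all genes). EdgeR called 18 without KO replicate 3 (14.7% of all genes). The R2B phosphatases, Ptprt included, and the TOX family, Tox2 included, have 4 genes each. In both lists 4 of 4 log2 fold changes were negative, against 45.1% of all genes. Ptprt (-0.37) and Tox2 (-0.46) were themselves the lowest of their lists. The medians were -0.21 and -0.27, and -0.35 and -0.53 without KO replicate 3. The 21 genes of the MuvB complex and the G2/M program, which work with B-Myb, had 14 positive and 7 negative values, Mybl2 being among the negative, against 54.9% positive over all genes, and a median of 0.095 (0.094 without KO replicate 3). The 23 intraflagellar transport genes had 15 positive and 8 negative with a median of 0.084 (0.10 without KO replicate 3), where Ift52 had the lowest value of the list, -0.21. The SR splicing factors (11 genes, median -0.033), MBT proteins (8 genes, median 0.021), CRAL-TRIO lipid binding proteins (4 genes with a row, median 0.00042) and oxidative stress genes (14 genes, median -0.0036) were centred near 0. Their medians without KO replicate 3 were -0.089, -0.029, -0.011 and -0.029.

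At P22, edgeR's quasi-likelihood test called 5 of the 65 list genes other than the neighbours, against 11.2% of all genes. Of the 65, 19 had an unadjusted p under 0.05 (28.8% of all genes), DESeq2 called 5 (14.2%) and limma-voom 15 (23.0%). EdgeR called 1 of 23 intraflagellar transport genes, which fell: Ift122, of the A complex. It went from 97.0 ± 9.76 CPM (SD, n = 2) to 72.4 ± 7.20 (n = 4), a log2 fold change of -0.57 (edgeR adjusted p 0.0267). The list had 17 negative and 6 positive values and a median of -0.14. Gdap1 rose from 45.2 to 74.8 CPM (log2 fold change 0.61, edgeR adjusted p 0.0205), whereas its relative Gdap1l1 did not pass. Of the 3 CRAL-TRIO genes with a row, 2 rose: Rlbp1, the retinal carrier of Müller glia, from 102 to 192 CPM (0.78, edgeR adjusted p 0.0116), and Clvs1, a clavesin, from 3.41 to 8.27 CPM (0.97, edgeR adjusted p 0.0381). Rlbp1 is also one of the Müller glia markers above.

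In the oxidative stress list 1 of 12 was called, against 11.2% of all genes: Gpx4, a lipid peroxide reductase, which fell from 131 to 93.1 CPM (-0.62, edgeR adjusted p 0.0121). None of the 11 SR factors, 7 cell cycle genes, 4 R2B phosphatases, 4 TOX genes or 6 MBT genes with a row was called by edgeR's quasi-likelihood test. Of the 29 among them that are not neighbours, 9 had an unadjusted p under 0.05 (28.8% of all genes did), DESeq2 called 1 (14.2% of all genes) and limma-voom called 7 (23.0% of all genes). The R2B list, Ptprt included, was positive in 3 of 4 with a median of 0.43, and the TOX list, Tox2 included, in 3 of 4 with a median of 0.30, against 53.6% positive over all genes. In the joint fit, edgeR called 2 of 65 list genes other than the neighbours, against 4.10% of all genes. They were Ptprk, a relative of Ptprt, whose genotype effect was 0.62 more positive at P22 than at P0 (edgeR adjusted p 0.0482), and Rlbp1, at 0.90 (edgeR adjusted p 0.0190). Of the 65, 20 had an unadjusted p under 0.05 (21.6% of all genes). DESeq2 called 5 (7.33%), limma-voom 11 (13.8%), and edgeR without P0 KO replicate 3 called 9 (10.7%).

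Across the 8 P0 libraries, the genes whose log2(CPM + 1) followed Gm11454 most closely by Pearson's r were Tmcc3 (0.98), Cib2 (0.94) and Dennd1c (0.94), among 18809 genes with a mean of at least 1 CPM. The most opposite were Paupar (-0.97), a noncoding gene on the same chromosome beside Pax6, Gm48191 (-0.94) and Txndc15 (-0.94). Since Gm11454 was at 0 in all KO libraries, these values mostly rank genes by how cleanly they separate the 2 genotypes at P0, which is how Gm11454 was chosen, and they support nothing further. The libraries also share kit, depth range and composition.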

How the data were processed

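The authors deposited 1 table per age holding whole-number read counts per gene, not normalized, and CPM, which the authors scaled to library size, per the file headers; count divided by CPM gave the library totals used here, of which the genes given make up 97.7% to 99.7%. The authors' deposited log2 fold changes and p-values were printed only where named. Trim Galore, STAR, HTSeq, edgeR and mm10 are named in the submitters' processing notes; versions and the rule for leaving genes out are not given in the sources used here.

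The members, lists and tests were chosen with earlier results of these data known. The genes named are the 10 members, the 2 window genes other than members with the smallest p at each age, list genes called at P22, and the genes most like Gm11454; genes named outside this rule (Ndufa4l2, Ptprk and the overlapping 2900093K20Rik) were chosen after their values or positions were seen. Counts of all genes were fitted per age with edgeR 4.0.16 in R 4.3.3 (filterByExpr, which removed 0 genes, TMM, quasi-likelihood test, Benjamini-Hochberg adjustment over all genes, threshold 0.05), and jointly over 11428 shared genes for the difference between ages. SE is the absolute log2 fold change over the root of F, and intervals are 95%. Alternatives were DESeq2 1.42.0, its size factors, totals only, limma-voom (limma 3.58.1) with sample weights, no filter, a mean count of at least 10, a threshold of 0.10, a replicate block and each library left out. These intervals include the spread between libraries; the floor of 3 reads covers counting error only. The fits were tested on simulated data. Positions and exon lengths came from GENCODE M21 (GRCm38) by gene ID, and 18779 of 19337 P0 rows and 11203 of 11613 P22 rows matched with version.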

Additional observations from a re-analysis of the deposited data

Results flagged for a closer look

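In 1 of the 26 groups of 4 libraries checked, 1 library lay far from the rest: Ptprt in P0 KO replicate 3, at 79.2 CPM against 39.1 to 44.8 CPM in the other 3 KO libraries. Its gap to the nearest library was 0.859 of the group's whole range, above the critical value of 0.829 for 4 libraries. Chance marks about 5% of such groups.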

How the results depend on the processing

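Depth limits Gm11454 (97 reads) and P22 het replicate 1 most. Limma-voom with sample weights called 3 neighbours and 5 window genes at P0 (11.1% of all genes), 1 window gene at P22 (23.0%) and 2 neighbours in the difference between ages (13.8%). DESeq2 called 1 window gene at P22 (14.2% of all genes), as did a threshold of 0.10 (19.6%), and a window of 5 Mb held 9 (11.2%). Leaving out each library in turn gave 0 to 4 neighbours and 0 to 7 window genes at P0, 0 neighbours and 0 to 1 window genes at P22, and 0 to 2 neighbours in the difference; the 4, the 7 and the 2 came without P0 KO replicate 3, and the 1 without P22 KO replicate 3. Without P0 KO replicate 3, 14.7% of all genes were called at P0 and 10.7% in the difference. Without P22 KO replicate 3, 9.39% of all genes were called at P22. Causes were not tested.

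With the replicate block, 1 neighbour (Ptprt, 0.71, edgeR adjusted p 0.0147, and 0.0147 to 0.585 over its alternatives) and 3 window genes were called at P22, where it called 15.2% of all genes, and the signs turned for Oser1 (-0.074) and Ttpal (-0.014) at P22 and for Ttpal in the difference (-0.020). Deviations of same-numbered het and KO libraries from their group means correlated at -0.129, -0.134, -0.0791 and -0.277 at P0. At P22 they correlated at 0.188 and -0.0869. Differently numbered libraries were not compared, so these values do not decide whether the numbers pair the samples.

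Signs also turned for Oser1 with DESeq2 (-0.013) and Ift52 with limma-voom (-0.042) at P22, and for Oser1 in the difference with totals only (0.11). Leaving out a library turned signs of Oser1 (-0.11 to 0.059) and Gdap1l1 (-0.14 to 0.0065) at P0, of Oser1 (-0.30 to 0.14), Ift52 (-0.066 to 0.42), Tox2 (-0.34 to 0.45) and Ttpal (-0.15 to 0.16) at P22, and of Oser1 (-0.34 to 0.080) and Ttpal (-0.15 to 0.15) in the difference. In all, 25 values reversed, 25 were a gene that passed the threshold anew or a count of calls that grew, and 466 did neither.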
